A study of Homo sapiens with 8 samples.

Results

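The regions described here were weakened by NRF2 siRNA: 1243 stretches of the genome that carried acetylated histone H3 lysine 27 (H3K27ac) in all 6 libraries of A549 cells but ranked lower after NRF2 siRNA in each of 3 replicate pairs. They were chosen by 3 steps. Peaks of the 6 lists were merged wherever they overlapped by 1 bp or more, which gave 49186 regions, of which 16845 were called in every library and are termed shared regions. In each library a shared region received the percentile of its highest fold enrichment among all regions that this library had called. A shared region was then kept when its percentile was lower with NRF2 siRNA than with control siRNA in all 3 pairs of equal replicate number and the mean fall over the pairs was at least 20 percentile points. The 1243 regions that met the rule were 7.38% of the shared regions. The same rule with its sign turned selected 975 strengthened regions, or 5.79%. Which direction had more regions changed with the processing: with all lists cut to equal length the counts were 1105 weakened and 1127 strengthened, with percentiles among shared regions 1375 and 1524, and without pair 1 2015 and 2176. Because the regions were selected on the contrast between the siRNAs, the values of that contrast are a description and carry no p value, and the regions are not replicates of a condition.

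A549 is a lung adenocarcinoma cell line that carries a KEAP1 mutation, a background shared by all groups. Cells were transfected with control siRNA (3 libraries) or with NRF2 siRNA (3 libraries) and harvested after 48 h for chromatin immunoprecipitation with an anti-H3K27ac antibody and sequencing (ChIP-seq). NRF2 siRNA replicate 1 received siRNA 28, and replicates 2 and 3 received siRNA 30. The study describes its replicates as biological and its experiments as independent, the labels do not say whether they were separate cultures, and all cells came from a single line.

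NRF2, encoded by NFE2L2, is a basic leucine zipper transcription factor that KEAP1 normally delivers to degradation through a CUL3 ubiquitin ligase. Where KEAP1 is lost NRF2 accumulates, pairs with small MAF proteins and binds the antioxidant response element (ARE) beside genes for glutathione synthesis, detoxification, thiol reduction and NADPH supply. H3K27ac marks active promoters and enhancers, so its level at an ARE reads the activity of the element and not the binding of NRF2 itself.

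The lists differed in length before any region was compared. They held 27941, 34747 and 41571 peaks in control replicates 1, 2 and 3 and 23885, 34986 and 39108 in the NRF2 siRNA replicates, so that NRF2 siRNA replicate 1 had the shortest list. The peak names of both replicate 1 libraries lack the flow cell identifier that the other 4 share, and NRF2 siRNA replicate 1 is also the only library with siRNA 28. The study's reporting summary also lists fewer mapped reads for both libraries of this pair than for any of the others. Depth, a separate run and the choice of siRNA cannot be told apart in pair 1. Since siRNA acts on mRNA, H3K27ac at NFE2L2 does not check the knockdown. The percentiles at the NFE2L2 start were 97.7, 98.0 and 98.2 in the controls and 94.1, 97.8 and 96.7 with NRF2 siRNA, a mean change of -1.77 points. Epithelial identity was visible in the shared regions, which covered the starts of 5 of 6 epithelial markers (KRT8, KRT18, EPCAM, CDH1 and CLDN7), 1 of 5 blood markers (CD14), 0 of 3 endothelial and 0 of 3 fibroblast markers. None of these start regions was among the weakened regions.

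The sequences at the largest falls were read from GRCh37, the reference that corresponds to hg19, to show what the weakened regions hold. The search used the core ARE, TGACNNNGC, and a longer form with all letters set, TGACTCAGC, in which the AP-1 word TGACTCA lies at the left; both strands were read, and a match is a description and not a bound site. Over whole regions, the core word lay in 76.3% of all weakened and 72.9% of the other shared regions, the long word in 20.1% and 11.3%. Of the 12 regions with the largest mean fall, 7 held the long word and 12 held the core word. Below, in 6 of these regions, the long word is in capitals, and each line gives the strand as read in the 5′ to 3′ direction with 20 bases on either side.
NOVA1 distal region, chr14:26750977-26751025 (+): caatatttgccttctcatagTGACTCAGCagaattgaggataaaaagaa
SYNDIG1 intron, chr20:24615643-24615691 (+): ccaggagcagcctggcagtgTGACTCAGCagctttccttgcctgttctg
PLET1 distal region, chr11:112173197-112173245 (+): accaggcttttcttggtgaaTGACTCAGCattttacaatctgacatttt
ATXN7L1 intron, chr7:105289408-105289456 (+): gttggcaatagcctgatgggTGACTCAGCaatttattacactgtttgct
EPB41L1 intron, chr20:34757575-34757623 (+): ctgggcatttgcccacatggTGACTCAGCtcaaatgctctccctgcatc
DLG2 intron, chr11:85010464-85010512 (+): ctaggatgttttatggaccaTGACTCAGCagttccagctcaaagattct
In 3 of these 6 regions the word lay within 100 bp of the middle of the region, at 31 bp (NOVA1), 1 bp (SYNDIG1) and 81 bp (PLET1). The other 3 words lay 119 bp (ATXN7L1), 853 bp (EPB41L1) and 247 bp (DLG2) from it.

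The region with the largest fall of all and the region upstream of NOTCH3, on which the study turns, are set beside them. The AKR1B15 region, 8451 bp long, held 1 core word and no long word, where the other shared regions held 0.382 core words per kb. The NOTCH3 region held 1 long word among 4 core words. The capitals again mark the word found.
AKR1B15 distal region, chr7:134278767-134278815 (+): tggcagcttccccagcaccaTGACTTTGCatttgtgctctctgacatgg
NOTCH3 upstream region, chr19:15321244-15321292 (-): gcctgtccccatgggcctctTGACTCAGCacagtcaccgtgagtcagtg
In the remaining 4 of the 12 regions (TMEM40, HGF, FOXP1 and CD300LG) core words alone were found. At HGF, FOXP1 and CD300LG the core word nearest the middle read TGACAGAGC, letters that are common in Alu repeats and made up 11.9% of all core words in weakened regions and 14.0% of those in other shared regions. This spelling was singled out after the words had been seen.

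In the controls the weakened regions stood close to the other 15602 shared regions, and with NRF2 siRNA they stood far below them. Their median percentiles were 70.2, 72.8 and 78.3 in control replicates 1, 2 and 3, where the other shared regions had 63.5, 72.0 and 78.0. With NRF2 siRNA the medians were 22.6, 48.8 and 58.5 for the weakened regions and 61.1, 74.7 and 78.2 for the other shared regions. Part of this pattern follows from the rule, and a percentile is a rank, so a fall can also follow from a rise of other regions in the same list. The median mean change was -26.1 points, and the mean changes ran from -80.8 to -20.

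**Figure D1:**
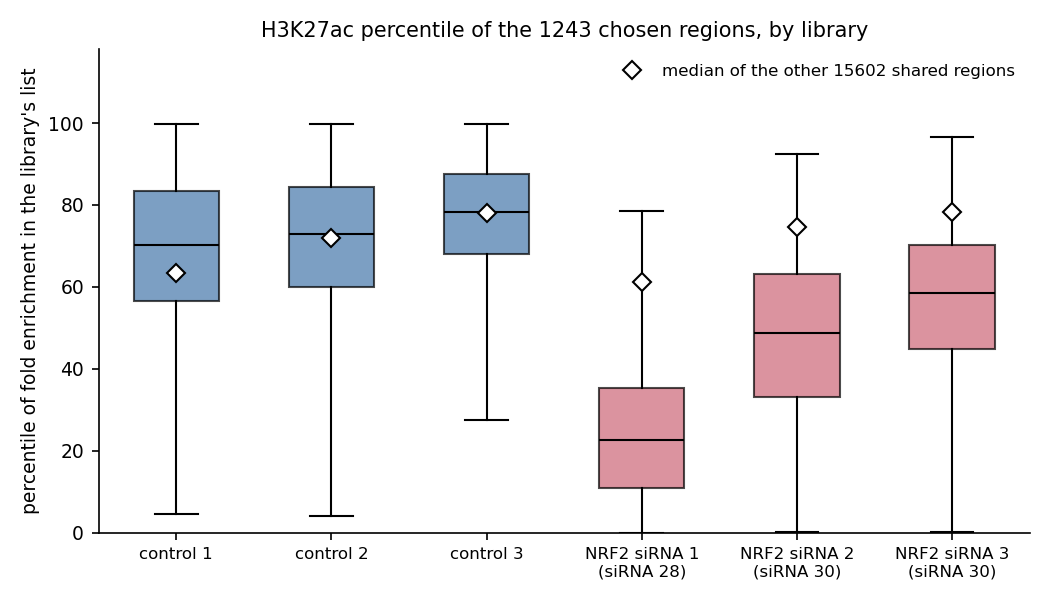
Percentile of H3K27ac fold enrichment (vertical axis, 0 to 100 within each library's own list) of the 1243 weakened regions in 3 control and 3 NRF2 siRNA libraries. Boxes span the quartiles with the median as a line, whiskers reach the lowest and highest value, and diamonds give the median of the other 15602 shared regions; the boxes of the NRF2 siRNA libraries lie below their diamonds, with the lowest median, 22.6, in NRF2 siRNA replicate 1.

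The fold enrichment itself, which is the mean over a broad peak relative to background, fell as well. Its median over the weakened regions was 5.29, 5.61 and 7.38 in the controls and 3.31, 4.14 and 4.55 with NRF2 siRNA. Over the other shared regions it was 4.79, 5.53 and 7.33 in the controls and 4.34, 6.16 and 6.67 with NRF2 siRNA. The fold was lower in all 3 pairs at 1203 weakened regions (96.8%) and at 23.2% of the other shared regions. The stretch called as acetylated was shorter too: the median covered length was 2027, 2323 and 2910 bp in the controls and 994, 1766 and 2111 bp with NRF2 siRNA.

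Pair 1 weighed most on the selection. The median changes of pairs 1, 2 and 3 were -43.7, -21.2 and -18.1 points. The largest fall of a region came from pair 1 at 986 regions (79.3%), from pair 2 at 161 (13%) and from pair 3 at 96 (7.72%). The median SD over the 3 libraries was 6.67 points for controls and 18.5 for NRF2 siRNA. With the rule applied to pairs 2 and 3 alone, 2015 regions were selected, among them 608 (48.9%) of the 1243. Pairs 1 and 2 alone gave 1895 regions, which included 95.5% of the 1243, and pairs 1 and 3 alone gave 1851, which included 93.9%. A rule over 2 pairs also asks for fewer calls and fewer falls, so that these counts rise in part by construction.

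The groups did not overlap, with every NRF2 siRNA library below every control library, at 829 weakened regions (66.7%). Over all shared regions the groups were separated in this direction at 1814 (10.8%), and since the rule used the same values nothing is read from the difference. A mean fall of 30 points or more was found at 390 regions, of 40 or more at 146, of 50 or more at 50 and of 70 or more at 7. In 881 regions each pair fell by 10 points or more and in 342 by 20 or more. At the threshold itself, the 3 regions just inside were 691844 bp from TFAP2A, at the start of SHKBP1 and at the shared start of GYS1 and RUVBL2, and the 3 just outside were at the start of RBBP7, 1006230 bp from ALCAM and at the start of ZNRF3, all with a mean change that rounds to -20.

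A pair whose percentiles took no part in the selection offered a measure of the same contrast. Its calls did take part, since regions were drawn from the 16845 called in all 6 libraries, and without the libraries of pair 1 altogether 2015 regions were selected in place of 785. When regions were selected on pairs 2 and 3, 690 of 785 (87.9%) were lower with NRF2 siRNA in pair 1, with a median change of -30.6 points. Selection on pairs 1 and 3 left 1549 of 1809 (85.6%) lower in pair 2 (median change -13.6), and selection on pairs 1 and 2 left 1618 of 1797 (90%) lower in pair 3 (median change -12.4). Over all shared regions 58.5%, 47.6% and 55.5% were lower in pairs 1, 2 and 3. Regions selected by the mirrored rule were lower in the pair left out at 20.8%, 4.64% and 11.7%. Direction was thus mostly kept in the pair left out, including the siRNA 28 pair after selection on the 2 siRNA 30 pairs, while the size of the change was smaller in pairs 2 and 3. No selection rested on siRNA 28 alone. The libraries of a pair share cells of a single line, and a single pair has no replicate, so no test was made.

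**Figure D2:**
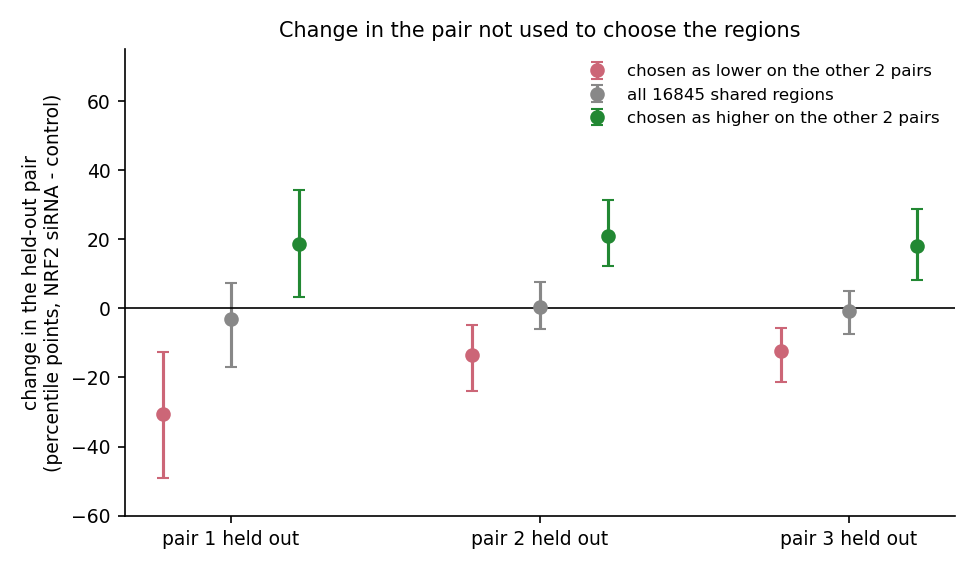
Change in percentile (vertical axis, NRF2 siRNA minus control, in points) in the pair that was not used to select the regions, for pairs 1, 2 and 3. Points are medians and bars span the quartiles; regions selected as lower on the other 2 pairs (red) had medians of -30.6, -13.6 and -12.4, all shared regions (grey) lay near 0, and regions selected as higher (green) lay above 0.

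Most weakened regions lay away from promoters, but whether they did so more often than other shared regions depended on the processing. A start of a protein-coding gene fell in 448 (36%) of them and in 42.2% of the others (95% Wilson intervals 33.4 to 38.8% and 41.4 to 43.0%, which cover the counting of regions only). A further 121 (9.73%) covered an exon without a start, 274 (22%) lay in introns and 400 (32.2%) between genes, where the other shared regions had 9.40%, 19.1% and 29.3%. Strengthened regions were further from promoters still, with a coding start in 9.95%. A coding start was thus absent from 64.0% of weakened and 57.8% of other shared regions. The shares were 70.8% and 64.1% without pair 1, 67.4% and 60.1% without pair 3, and 57% and 54.5% with lists of equal length. The order turned without pair 2, at 57.2% and 58.9%, and with stronger calls alone (-log10 q of 5 or more), at 51.4% and 56.5%.

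Larger falls were increasingly distal. Over all shared regions grouped by mean fall, the share without a coding start was 94.0% (47 of 50) at 50 points or more, 76.0% at 40 to 50, 70.6% at 30 to 40 and 59.3% at 20 to 30, and it was 49.9% at falls of 10 to 20 points. The 795 distal weakened regions had a median distance of 32018 bp to the nearest coding start, close to the 35037.5 bp of the 9016 other distal regions, and 61.8% against 59.2% lay within 50 kb of a start. A start of a long noncoding RNA lay in 76 of the 795 (9.56%) and in 11.7% of the other distal regions. The regions had a median length of 3249 bp (505 to 30277 bp) against 3589 bp and a median GC content of 46.2% against 47.2%. By chromosome the share of shared regions that were weakened was highest on chromosome 7 (94 of 916, 10.3%) and lowest on chromosome 21 (7 of 163, 4.29%).

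Of the 12 largest falls, 0 held a coding start, and the groups were separated in 12 of 12. The largest was an intergenic region at chr7:134274097-134282547, downstream of AKR1B15 and 24173 bp from its start, in the cluster of AKR1B aldo-keto reductases that reduce carbonyls and retinal. Its percentiles were 98.1, 98.9 and 92.4 in control replicates 1, 2 and 3 and 1.73, 16.0 and 29.3 with NRF2 siRNA, and its fold enrichment was 13, 14.8 and 11.4 against 2.85, 2.94 and 3.07. No other shared region fell as far. AKR1B10 and AKR1B15 are close paralogs, and the authors removed reads with a mapping quality under 20, which takes out reads that match both equally, so values in their gene bodies are uncertain.

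An intergenic region at chr14:26749441-26752499, 312206 bp from NOVA1, a neuronal RNA-binding protein gene, stood at 93.8, 96.1 and 96.0 in the controls and at 9.34, 11.3 and 29.4 with NRF2 siRNA. In an intron of SYNDIG1 (chr20:24614138-24617197), which encodes a synaptic membrane protein, the percentiles were 93.4, 94.2 and 92.2 against 3.24, 6.17 and 35.0. Both regions left the top of the lists and held the long ARE word close to their middle. In TMEM40 (chr3:12791150-12792777), which encodes a transmembrane protein, a region over an exon had percentiles of 86.4, 90.8 and 89.7 and then 3.53, 13 and 20.6.

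PLET1, a gene first described in placenta, had an intergenic region 40665 bp away (chr11:112172248-112174356) with 88.4, 90.3 and 90.5 in the controls and 21.9, 7.35 and 12.6 with NRF2 siRNA. Here the lowest values came from siRNA 30 and not from siRNA 28. An intergenic region 266994 bp from HGF (chr7:81126472-81132293), which encodes hepatocyte growth factor, the ligand of MET, had 93.1, 89.5 and 87.6 against 20.8, 12.9 and 20.5. The 3 NRF2 siRNA libraries were close to each other there.

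An intron of FOXP1 (chr3:71188926-71191898), a forkhead transcription factor gene, gave 86.5, 84.5 and 77.0 and then 0.775, 25.5 and 12.5. The region 3843 bp from CD300LG (chr17:41915122-41920673), a CD300 family receptor gene, was the strongest of the 12 in the controls by mean percentile, at 99.6, 98.1 and 97.4, and stood at 37, 24.0 and 24.7 with NRF2 siRNA. Its fold enrichment was 16.3, 13.5 and 15.1 against 3.61, 3.17 and 2.93. Introns of ATXN7L1, EPB41L1 and DLG2 were also among the 12, with mean changes of -69.6, -69.0 and -68.3. In DLG2, a synaptic scaffold gene, NRF2 siRNA replicate 3 stood at 42.0 while replicates 1 and 2 stood at 11.1 and 3.52.

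**Figure D3:**
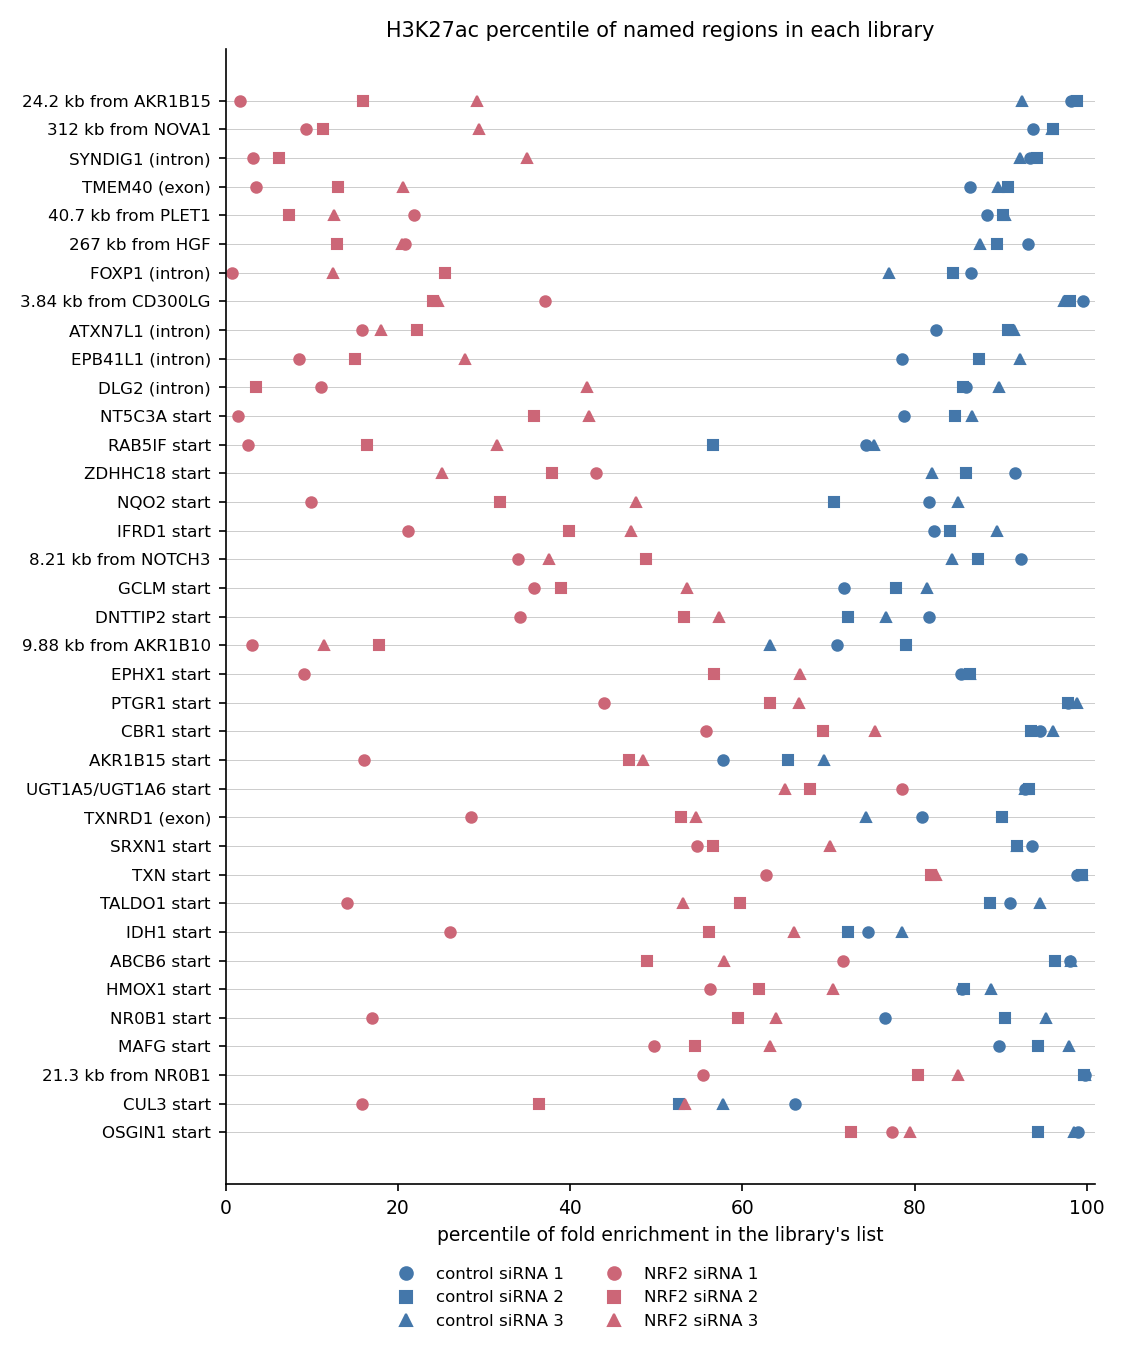
Percentile of H3K27ac fold enrichment (horizontal axis, 0 to 100 within each library's list) of named weakened regions, 1 per row, in 3 control (blue) and 3 NRF2 siRNA libraries (red), with replicates 1, 2 and 3 as circles, squares and triangles. Blue and red symbols are separated in each row except that of the CUL3 start, where the highest NRF2 siRNA value, 53.4, lies above the lowest control value, 52.6.

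Among weakened regions that held a coding start, the 5 largest falls were at NT5C3A, RAB5IF, ZDHHC18, NQO2 and IFRD1. The start of NT5C3A, which encodes a pyrimidine nucleotidase, stood at 78.8, 84.7 and 86.7 in the controls and at 1.5, 35.8 and 42.2 with NRF2 siRNA. At the start of ZDHHC18, a palmitoyltransferase gene, the lowest NRF2 siRNA value came from replicate 3, with 91.7, 85.9 and 82.1 against 43.0, 37.9 and 25.2. NQO2 encodes a quinone reductase related to NQO1, and its start region (chr6:2998853-3002706) had 81.7, 70.7 and 85.0 against 9.96, 31.9 and 47.7. The mean changes at RAB5IF and IFRD1 were -51.9 and -49.2 points. The groups were separated at all 5 starts.

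The genes of the NRF2 response were then taken by role. A gene was counted when a weakened region lay in it or within 20 kb, out of the genes that had any shared region there. Over all coding genes this held for 1526 of 12295 (12.4%), and 7.34% of the regions near coding genes were weakened. In 14 lists of 163 genes, 142 genes had a shared region and 35 had a weakened one. Near listed genes 42 of 328 shared regions were weakened, where near all coding genes 988 of 13466 were. Of the 42, 25 held a coding start and 36 had separated groups. By list the share of regions weakened ran from 0% (AP-1 factors and constitutively used genes) to 29.2% (quinone, carbonyl and aldo-keto enzymes). A gene with more shared regions counts more easily, so shares of genes and of regions are not alike. The order of the lists below follows role, and no set test was made.

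Within 20 kb the quinone, carbonyl and aldo-keto enzymes had the highest share, 6 of 11 genes (54.5%): AKR1B1, AKR1B10, CBR1, EPHX1, PTGR1 and UGT1A6. The order of the lists changed with the distance. Inside the gene this list had 45.5% and the thioredoxin system 50%. Within 100 kb it had 53.8%, below the C/EBP (83.3%), heme and iron (62.5%) and transporter (60%) lists. AKR1B1 counted through a region outside the gene, while the 1 shared region overlapping the gene changed by -0.87. The start of PTGR1, a prostaglandin and alkenal reductase gene (chr9:114359765-114370294), stood at 97.9, 97.8 and 98.9 in the controls and at 43.9, 63.2 and 66.6 with NRF2 siRNA, with a fold of 12.6, 13.2 and 17.9 against 3.78, 5.04 and 5.24. EPHX1, which encodes microsomal epoxide hydrolase, had 85.4, 86.5 and 86.5 against 9.16, 56.8 and 66.8, so that most of its mean change of -41.9 came from replicate 1. At CBR1, a carbonyl reductase gene, the change was -27.9. The widest weakened region, 30277 bp over the starts of UGT1A5 and UGT1A6 (chr2:234593893-234624169), glucuronosyltransferase genes that share their last exons, had 92.8, 93.2 and 92.9 against 78.5, 67.9 and 64.9.

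The thioredoxin system had 3 of 6 genes. The start of TXN, which encodes thioredoxin, was among the strongest regions of the controls at 98.8, 99.4 and 99.4 and stood at 62.7, 81.9 and 82.5 with NRF2 siRNA, with a fold of 14.1, 16.2 and 20 against 4.40, 7.22 and 7.43. SRXN1, the gene of sulfiredoxin, which reactivates peroxiredoxins, had 93.6, 91.9 and 91.9 against 54.8, 56.6 and 70.2. At TXNRD1, thioredoxin reductase, the weakened region lay inside the gene 27196 bp from the nearest start and had a mean change of -36.5. For NADPH supply 2 of 6 genes counted. The start of TALDO1, the transaldolase of the pentose phosphate pathway, had 91.1, 88.8 and 94.6 against 14.1, 59.8 and 53.1. IDH1, the cytosolic isocitrate dehydrogenase, had a mean change of -25.8 at its start.

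Glutathione genes counted in 1 of 10 (10%), below the 12.4% of all coding genes, and their 20 shared regions included 2 weakened and 2 strengthened ones. This order turned with the distance: within 100 kb 4 of 11 counted (36.4%), above the 22.1% of all coding genes. At the start of GCLM, the modifier subunit of glutamate cysteine ligase, the percentiles were 71.9, 77.9 and 81.4 against 35.8, 38.9 and 53.5. The strengthened regions were a region over an exon of GSR, the glutathione reductase gene, which stood at 61.2, 57.3 and 59.1 in the controls and at 91.7, 93.4 and 90.8 with NRF2 siRNA, and a region in ACSS2 near GSS, the glutathione synthetase gene, with a mean change of 25.4 points. In heme and iron handling 2 of 7 genes counted. The start of ABCB6, a porphyrin transporter gene (chr2:220081256-220084141), stood at 98.1, 96.3 and 98.1 and then at 71.7, 48.9 and 57.9, with a fold of 12.9, 11.7 and 16.1 against 4.84, 4.14 and 4.50. The region over the start of HMOX1, heme oxygenase, was 23448 bp wide (chr22:35759780-35783227), held 5 long ARE words and had 85.5, 85.8 and 88.8 against 56.3, 61.9 and 70.5.

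The drug and conjugate transporters had 2 of 5 genes, both with weakened regions inside the gene and away from the start. In ABCC1, the multidrug resistance protein gene, the regions had mean changes of -26.6 and -26.5, and in ABCG2, the breast cancer resistance protein gene, -24.4 and -22.6. The stronger ABCG2 region (chr4:89024228-89034964) stood at 99.4, 99.1 and 99.5 in the controls and at 57.5, 85.7 and 87.0 with NRF2 siRNA. Replicate 1 stood apart from the other NRF2 siRNA libraries there.

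Genes of the NRF2 circuit counted in 4 of 10: CUL3, MAFG, NR0B1 and OSGIN1. The start of MAFG, a small MAF partner of NRF2 (chr17:79879894-79886752), had 89.8, 94.3 and 97.9 against 49.8, 54.5 and 63.3. Around NR0B1, which encodes an orphan nuclear receptor, a region over the start changed by -40.6 and a region 21271 bp away, which had the highest control mean of all weakened regions at 99.8, 99.7 and 99.8, stood at 55.5, 80.4 and 85.1. OSGIN1, an oxidative stress-induced growth inhibitor gene, changed by -20.8. At CUL3, which serves the ligase that degrades NRF2, the groups overlapped, with 66.1, 52.6 and 57.8 against 15.8, 36.5 and 53.4.

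Below are long ARE words at the starts of some of these genes, which were picked for holding the word. The words lie in introns or just outside the gene, on the strand shown, and are in capitals.
TALDO1 upstream, chr11:746491-746539 (+): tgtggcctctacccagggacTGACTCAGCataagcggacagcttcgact
ABCB6 intron, chr2:220082651-220082699 (+): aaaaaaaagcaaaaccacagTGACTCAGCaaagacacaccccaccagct
HMOX1 intergenic, chr22:35773129-35773177 (-): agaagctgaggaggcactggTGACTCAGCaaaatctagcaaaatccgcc
MAFG intron, chr17:79884823-79884871 (+): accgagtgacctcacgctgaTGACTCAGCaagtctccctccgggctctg
EPHX1 intron, chr1:226005527-226005575 (-): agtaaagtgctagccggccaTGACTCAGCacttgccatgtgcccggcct
NQO2 intron, chr6:3002192-3002240 (-): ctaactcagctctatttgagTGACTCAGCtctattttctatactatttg
The starts of TXN, PTGR1, CBR1, SRXN1, GCLM, IDH1, CUL3, OSGIN1, NR0B1, UGT1A6 and AKR1B15 held the core word without the long one. So did those of NT5C3A, RAB5IF and ZDHHC18. Over whole regions, the long word lay in 12.5% of weakened and 8.03% of other shared regions with a coding start.

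Several of the best known NRF2 targets were not among the weakened regions although their H3K27ac fell. The start of NQO1, the quinone reductase most often used as a reporter of NRF2, stood at 99.2, 99.0 and 99.4 in the controls and at 94.6, 86.7 and 94.3 with NRF2 siRNA, a mean change of -7.31 points, while its fold enrichment was 15, 15.1 and 20 against 7.91, 8.27 and 11.3. SLC7A11, the cystine transporter gene, had 98.0, 96.1 and 96.5 against 77.7, 87.8 and 90. In both regions the groups were separated and the fold fell in each pair. At the top of a list a large loss of fold moves a region by few percentile points, so the rule selects against the strongest regions. Weakened regions had a control mean percentile of 90 or more in 13% of cases and the other shared regions in 17.3%. The order was the other way at 75 or more (45.6% and 42%) and at 50 or more (91.3% and 78.3%). The rule also leaves out regions that were low in the controls, since these cannot fall by 20 points.

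Lists outside the antioxidant response differed among themselves. No weakened region lay near the 9 AP-1 factor genes or the 14 constitutively used genes with a shared region. Within 100 kb, where 22.1% of all coding genes counted, 0 of 10 AP-1 genes and 3 of 14 constitutively used genes (21.4%) did. The lung and foregut lineage factors had 1 of 14 genes, TP63, with 44.2, 49.8 and 69.3 against 13, 6.15 and 29.1 in an intron. The EGF receptor family and its ligands had 1 of 10, NRG1, with 59.8, 70.9 and 75.7 against 2.58, 48.3 and 73.6, where the groups overlapped. Of the C/EBP factors 1 of 4 counted (25%), CEBPG, and within 100 kb 5 of 6 did (83.3%). The start of CEBPG had 38.2, 62.4 and 74.2 in the controls and 37.9, 32.4 and 40.4 with NRF2 siRNA, so the groups overlapped and pair 1 changed by -0.33 points.

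The NOTCH pathway had 4 of 12 genes (33.3%). Inside the gene 1 of 7 counted, MAML3 (14.3%, where all coding genes had 9.68%). Within 100 kb 4 of 14 did (28.6%, where all coding genes had 22.1%). The region upstream of NOTCH3 (chr19:15320011-15323763), intergenic and 8205 bp from the NOTCH3 start, stood at 92.3, 87.3 and 84.3 in the controls and at 34.0, 48.8 and 37.5 with NRF2 siRNA. Its fold enrichment was 8.98, 7.80 and 8.63 against 3.55, 4.14 and 3.36, and its mean change was -47.9 points. The groups were separated with both siRNAs, and without pair 1 the change was -42.6. In MAML3, a coactivator gene of NOTCH receptors, 2 intronic regions changed by -25.7 and -22.4, and a region 10886 bp from NOTCH1 changed by -20.9. The gene of the ligand DLL4 counted through a region at the start of the neighbouring CHAC1, a glutathione-degrading enzyme gene, which changed by -22.1. In the regions that counted for NOTCH1 and DLL4 the groups overlapped.

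Genes that the study named as downstream effectors of NRF2 specific to NRF2-activated lung cancer had 9 of 26. The list held 30 of these genes and not all that the study defined. Within 100 kb 12 of 27 counted, among them FAM20B and TMOD3, which did not count within 20 kb. The study chose them by RNA and not by H3K27ac. Their RNA fell after NRF2 siRNA in A549 and other NRF2-activated lines and was not induced by diethylmaleate in NRF2-normal lines. It later examined their H3K27ac in these samples, and regarded as direct targets those with NRF2 binding and NRF2-dependent H3K27ac. The study judged that dependence by a log2 ratio of H3K27ac levels and not by percentiles. Besides NOTCH3, a region in RABL3 near HGD had 82.6, 85.4 and 81.3 against 36.3, 6.07 and 34.5. A second region in HGD, the homogentisate dioxygenase gene, had 82.5, 76.4 and 85.2 against 26.8, 43.5 and 41.9. A region 15871 bp from ZC3H12A, an RNase gene of inflammatory mRNA decay, changed by -44.1, the start of C5AR1, a complement receptor gene, by -37.1, and the shared start region of BEND6 and DST by -32.0.

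Weakened regions lay near each other more often than other shared regions lay near them. Another weakened region was within 50 kb of 196 (15.8%), while 9.85% of the other shared regions and 5.85% of the strengthened regions had one at that distance. Within 10 kb the shares were 4.02%, 2.33% and 0.718%. A region called in controls only lay within 50 kb of 132 weakened regions (10.6%) and of 6.49% of the others, and a region called with NRF2 siRNA only lay near 15 (1.21%) and near 2.30% of the others. Strengthened regions were within 50 kb of 4.75% and 7.38%. Without pair 1, 19.2% of the regions selected had another within 50 kb. More regions were selected then, and the share for other shared regions was not computed, so this value has no comparison.

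The shared region next to a weakened one tended to fall with it, and the tendency declined with distance. Next regions closer than 5 kb were lower in all 3 pairs in 43.7% of 206 cases, with a median change of -5.53 points, where next regions of other shared regions were so in 26.8%, with a median of -0.51. At 5 to 20 kb the shares were 42.6% and 29.8%, at 20 to 100 kb 36.1% and 29.5%, and beyond 100 kb 26.3% and 26.7%. Over all shared regions 28.9% were lower in all 3 pairs. For 459 of the 795 distal weakened regions the nearest coding start lay in a shared region, and that promoter was lower in all pairs in 45.1% of cases, with a median change of -4.16, against 34.4% and -2.48 for the other distal regions. Only 37 of the 459 promoters (8.06%) met the rule themselves.

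**Figure D4:**
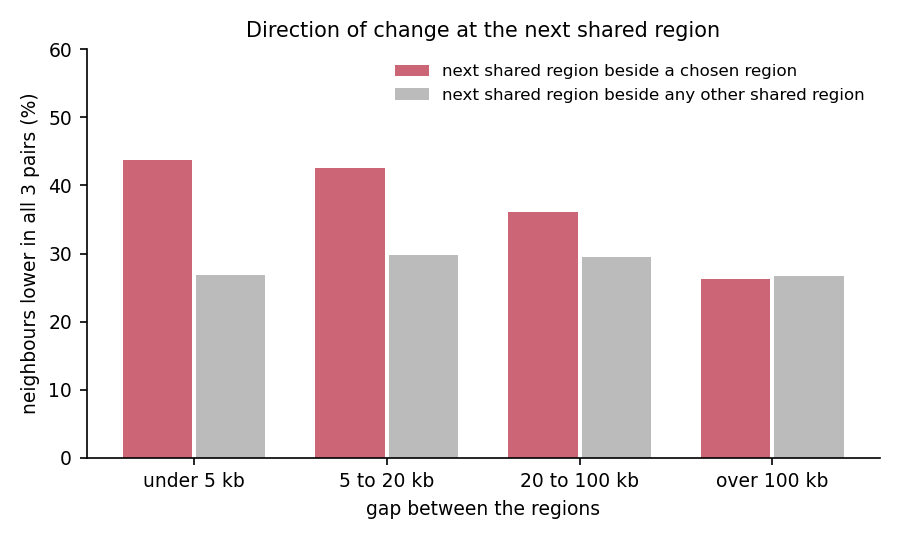
Share of next shared regions that were lower with NRF2 siRNA in all 3 pairs (vertical axis, percent) by the gap to the region beside them (horizontal axis, in kb), for neighbours of weakened regions (red) and of other shared regions (grey). The red bars decline from 43.7% under 5 kb to 26.3% over 100 kb, where they meet the grey bars.

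When weakened regions less than 100 kb apart were joined, 1081 loci resulted, of which 948 held 1 region and 25 held 3 or more, with 79 regions in all. The shared regions of a locus were counted from its first to its last weakened region, so a high share is partly set by construction, and counts over whole genes are given beside them. The locus with most reached from upstream of LPP, a gene of a focal adhesion protein, into the gene, with 5 of 8 shared regions weakened over 270116 bp of chromosome 3, with mean changes from -38.3 to -27.2. All 8 regions had a mean change below 0, but of the 10 shared regions that overlapped LPP itself 2 were weakened and 2 strengthened. The AKR1B1, AKR1B10 and AKR1B15 locus held 4 of 10 shared regions, with a median of -43.7. Besides the region downstream of AKR1B15, a region 9880 bp from the AKR1B10 start stood at 71.0, 79.1 and 63.2 and then at 3.08, 17.8 and 11.4. The other 6 shared regions of this locus had a median change of -0.38, so the falls were unequal within it.

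A locus on chromosome 1 from GSTM5 to AHCYL1 held 4 of 9, at EPS8L3, CSF1 and AHCYL1. The start of CSF1, the macrophage colony-stimulating factor gene, changed by -37.9. At a start of AHCYL1, a homologue of adenosylhomocysteinase, the percentiles were 84.6, 87.3 and 90.7 against 0.370, 54.8 and 64.5, so replicate 1 set most of the fall. CSF1 and AHCYL1 were each overlapped by 2 shared regions, of which 1 was weakened, with median changes of -27.6 and -24.3. In VPS13D, a gene of lipid transfer between organelles, 3 of the 5 shared regions of the gene were weakened, with -56.4, -47.8 and -21.7. The locus at TMCC1, an endoplasmic reticulum membrane protein gene, had -50.6, -41.6 and -34.2, and 2 of the 4 shared regions overlapping the gene were weakened.

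Further loci with 3 weakened regions were singled out after their values were seen, for the known roles of their genes. At GCLM and DNTTIP2, each overlapped by 1 shared region, the lowest mean change of the locus was -64.8, deeper than the -34.3 at the GCLM start. The locus at CAT, the catalase gene, had a lowest change of -60.4, and the 1 shared region that overlapped the gene changed by -22.4. In POR, the cytochrome P450 reductase gene, 3 of 4 shared regions were weakened, and in AHR, the gene of the dioxin receptor, 3 of 12. The locus at the fibrinogen genes FGB, FGA and FGG had a lowest change of -43.9, and of these genes FGG alone was overlapped by a weakened region. As genes, 930 coding genes were overlapped by a weakened region and 513 had a start in one.

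Long ARE words were more frequent in the weakened regions, and most so where the fall was largest. The long word lay in 250 of 1243 regions (20.1%) and in 11.3% of the other shared regions. Counted in the central 2000 bases, so that length does not enter, the shares were 13.8% (95% Wilson interval 12 to 15.9%) and 4.99% (4.66 to 5.34%), and 3.69% in strengthened regions. By mean fall the share was 40% at 50 points or more, 27.1% at 40 to 50, 19.6% at 30 to 40, 8.78% at 20 to 30 and 5.65% at 10 to 20. Among regions that rose it was between 3.12% and 5.56%. Most weakened regions, 993 of 1243, held no long word.

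The difference was present with and without a coding start. In the central 2000 bases the long word lay in 6.92% of the weakened regions with a start and 3.25% of the others, and in 17.7% of those without a start against 6.26%. Within the regions the words lay close to the middle: of the 336 long words of weakened regions 50.6% were within 500 bp of it, at a median of 487 bp, against 22.7% and 1437.5 bp for the 2038 words of the other shared regions. Words and not regions were counted, and 39 of the 336 lay in a single region near DBNDD1. Distances can also grow with length, and the other shared regions had a median of 3589 bp against 3249 bp. Without pair 1, 19.5% of the regions selected held the long word.

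Shorter or unrelated words differed less. The core word lay in the central 2000 bases of 62.2% of weakened and 53.8% of other shared regions, and its letters read backwards, CGNNNCAGT, which served as a control, in 24.4% and 26.3%. The backward word depended on place, with 40.2% and 39.2% where a coding start was held and 15.5% and 17% where not. It is therefore not a matched control for the core word over all regions. The C/EBP word TTGCNNAA lay in 62.2% of both. The AP-1 word outside a long ARE, a count added after the data were seen, lay in 33.5% of weakened, 38.7% of other shared and 63.3% of strengthened regions. Strengthened regions also had a lower median GC content, 41.6%, and held a coding start less often, and the part of these in the AP-1 count was not tested.

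**Figure D5:**
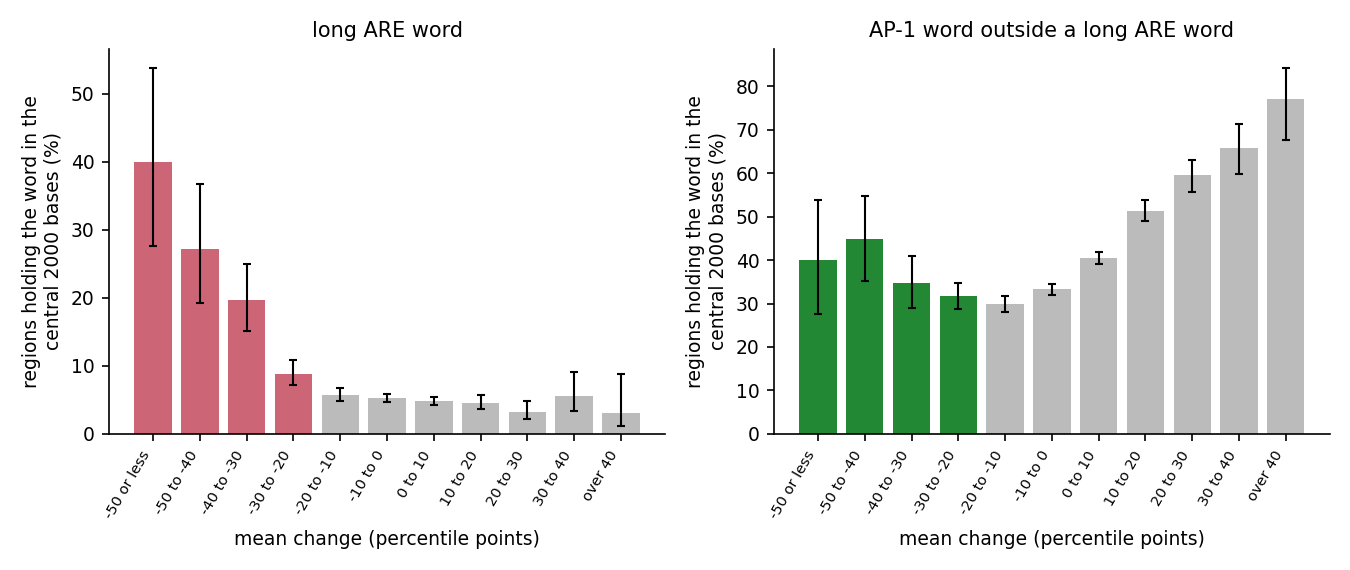
Share of shared regions whose central 2000 bases held the long ARE word (left) or the AP-1 word outside a long ARE (right), in percent on the vertical axes, by mean change in percentile points on the horizontal axes; bars are shares with 95% Wilson intervals, and coloured bars lie at or below -20 points. The long word declined from 40% at the largest falls to 8.78% at falls of 20 to 30 points, and the AP-1 word reached 77.1% at rises over 40 points.

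The 250 weakened regions with a long word differed from the 993 without it. They were longer, with a median of 3886.5 bp against 3117 bp, and the rule had used their changes and their separation. Their median mean change was -30.8 against -25.5, 77.6% against 60.5% lacked a coding start, and their median control percentile was 84.8 against 70.8. The groups were separated in 89.2% and in 61.0%. In pairs 2 and 3 alone the median changes were -26.6 and -22.6 with the word and -19.9 and -17.0 without.

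Arrays of the long word stood out. Weakened regions near DBNDD1 and TRIML1 held 6 or more copies; these arrays lie outside the rule by which regions were named and were chosen after their values were seen. The DBNDD1 region (chr16:90060140-90063820), intergenic and 11592 bp from the start of DBNDD1, a gene of a dysbindin domain protein, held 39 copies on the same strand over 1329 bp at a median spacing of 27 bp. It stood at 96.9, 97.6 and 99.4 in the controls and at 28.5, 13.8 and 48.1 with NRF2 siRNA. The TRIML1 region (chr4:189370047-189374257), 309452 bp from TRIML1, a tripartite motif gene, held 6 copies and had 78.6, 82.3 and 71.7 against 34.0, 47.9 and 34.1. In both regions the groups were separated. A further array, 7 copies 78847 bp from ZNF469, had a mean change of -19.9 and missed the threshold on the mean fall. To show how the copies repeat, 240 bases of the DBNDD1 and TRIML1 arrays are given, with the word in capitals on the plus strand.
DBNDD1 array, chr16:90061829-90062068 (+): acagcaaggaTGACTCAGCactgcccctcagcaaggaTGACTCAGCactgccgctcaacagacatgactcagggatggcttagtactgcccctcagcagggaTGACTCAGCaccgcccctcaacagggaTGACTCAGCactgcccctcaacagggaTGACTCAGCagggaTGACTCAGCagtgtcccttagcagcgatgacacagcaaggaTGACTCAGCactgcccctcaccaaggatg
TRIML1 array, chr4:189370155-189370394 (+): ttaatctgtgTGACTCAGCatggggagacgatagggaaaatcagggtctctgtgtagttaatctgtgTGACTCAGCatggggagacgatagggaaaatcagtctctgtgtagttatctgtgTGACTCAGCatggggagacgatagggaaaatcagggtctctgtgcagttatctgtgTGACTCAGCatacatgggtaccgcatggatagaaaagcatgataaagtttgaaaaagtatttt
The DBNDD1 stretch holds 7 copies and the TRIML1 stretch 4, and both repeat their flanks with few changes. Reads that match several copies equally have a low mapping quality, and the part of this in the values was not tested.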

How the data were processed

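H3K27ac ChIP-seq peak lists of 6 A549 libraries were used; 2 input samples were not analysed here. Per the labels and the study's methods, the authors trimmed reads (bcl2fastq 2.15.0, cutadapt 1.15), aligned them to hg19 (Bowtie2 2.2.6), removed mapping qualities under 20 (SAMtools), called broad peaks per library (MACS2 2.1.0.20151222) and removed blacklisted regions (bedtools). The deposited lists hold, per peak, the mean fold enrichment (a ratio) and the -log10 q-value; the background of the fold is not given in the sources used here. The lists hold no read counts; the read totals listed in the study's reporting summary are not reproduced, and intervals (95%, Wilson) cover the counting of regions only.

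Regions, percentiles, places and words were computed with Python 3.11.15, pandas 2.3.3, numpy 2.4.6, scipy 1.17.1, pysam 0.24.0 and matplotlib 3.10.9 on GRCh37 with GENCODE 44 lifted to it. All 24 chromosomes matched, with 0 peaks past an end. Of 202238 peaks 136 lay on other contigs; they were kept in the merging and the percentiles and left out of the shares by chromosome. A place is a coding start, else an exon, else an intron, else intergenic. Replicate numbers are from the titles; same-numbered libraries deviated together (correlations of deviations from the group means 0.354, 0.279 and 0.397), so they were treated as pairs. The regions and gene lists were chosen with earlier results of these data known. Named were the 12 largest falls, the 5 largest with a coding start, the NOTCH3 upstream region, up to 6 regions per gene list, the 5 loci with most members, the widest region and 3 regions on either side of the threshold. The rule was checked on simulated lists. Alternatives varied list length, call strength, ranking, merging, thresholds, pairing and replicates. Some results are not reported here.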

Additional observations from a re-analysis of the deposited data

How the results depend on the processing

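No paired analysis was possible because no value here comes from a test; the selection itself used the pairs, and the rule that ignored them and asked for groups that do not overlap kept 829 regions. Cutting every list to the length of the shortest gave 1105 weakened and 1127 strengthened regions; the 1105 included 72.2% of the 1243, and 57.0% of them lacked a coding start. With calls of -log10 q of 5 or more, 477 weakened and 311 strengthened regions were selected, 51.4% of the weakened lacked a coding start and 8.18% lay within 50 kb of another; only 12 of the 1243 were kept, since their calls in NRF2 siRNA replicate 1 had a median -log10 q of 2.13. The NOTCH3 region had no value under these 2 alternatives because it was then not called in every library. With percentiles taken among shared regions, 1375 were weakened and 1524 strengthened, 59.2% of the weakened lacked a coding start, 18.8% lay within 50 kb of another and the NOTCH3 region changed by -60.4. Ranking by -log10 q left the long word in 22.5%. A threshold of 15 points gave 1987 weakened and 1519 strengthened regions, of which the weakened had no coding start in 58.7%, the long word in 17.4% and another within 50 kb in 21.0%; a threshold of 30 points gave 390 and 346, with 74.9%, 34.4% and 8.46%. Falls of 10 points in every pair raised the share with the long word to 24.0%, and groups that do not overlap gave 68.5%, 26.9% and 13.6%. Leaving out replicates 1, 2 and 3 in turn gave 1851 to 2015 weakened and 1127 to 2176 strengthened regions, no coding start in 57.2% to 70.8%, the long word in 16.1% to 19.5% and another within 50 kb in 16.5% to 21.7%. The long word lay in 13.8% of the central 2000 bases, and listed genes with a weakened region numbered 55 within 100 kb. The long word was more frequent in the weakened than in the other shared regions under each change of lists, ranking, merging, threshold or replicates, with the smallest differences at -log10 q of 5 or more (22.2% against 16.9%) and without replicate 2 (16.4% against 11.2%), while under these same 2 the share without a coding start was lower in the weakened regions. The causes of these shifts were not tested, apart from fewer or more regions being admitted by construction. The other alternatives, 52 values in all, moved the counts by less than 1.5 times and the other values by less than their spread.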
